A study of Gallus gallus with 9 samples.

Results

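Cadherins and protocadherins join cells to each other, integrins hold cells to the extracellular matrix, and laminins are the trimeric proteins from which basement membranes are built. The genes described here are those whose single platform symbol is CDH followed by a digit, starts with PCDH, is an integrin alpha or beta symbol (ITGA or ITGB followed by a digit, or ITGAV), or is LAMA, LAMB or LAMC followed by a digit. The rule found 64 genes among the 13009 named genes on the array, each represented by its brightest probe set, and 146 of the 38439 probe sets tested. They were 19 cadherins, 15 protocadherins, 16 integrin subunits, 11 laminin chains and 3 proteins that carry an integrin's name because they bind one (ITGB1BP1, ITGB1BP3 and ITGB3BP). The genes were picked by symbol only, while the probe set of each gene was picked by its mean signal over all arrays.

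The study compared the 3 kinds of swelling that form the face of the chick embryo: the mandibular prominence, which forms the lower jaw, the maxillary prominence, which forms the upper beak's sides, and the frontonasal mass between the nasal pits, which forms the midline of the upper beak. Embryos were normal and untreated, of unknown genotype, incubated at 38 degrees C to Hamburger Hamilton stage 18, when facial crest cells have stopped migrating and cartilage, bone and muscle have not yet differentiated. Each of the 9 Affymetrix arrays held RNA of one pool of 26 to 32 dissected pieces of mesenchyme with its epithelium, and each prominence had 3 pools (n = 3 throughout). In such bulk RNA, fewer cells of a type and less RNA per cell cannot be told apart.

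Classical cadherins bind the same kind of cadherin on the neighbouring cell and are tied to actin inside by the catenins. Type I members such as E-cadherin (CDH1, epithelia) and N-cadherin (CDH2, neural tissue and many mesenchymes) are the main adhesion molecules of their tissues, and type II members are more restricted in where they are expressed. Integrins are pairs of 1 alpha and 1 beta chain whose alpha chain largely sets the ligand, collagen, laminin or fibronectin, and laminin trimers hold 1 alpha, 1 beta and 1 gamma chain.

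Signals are scaled linear intensities, and background on an array was the level under which 95% of 598 viral and reporter probe sets stayed, 31.6 to 37.1. Between 49.2% and 53.3% of probe sets exceeded it per array, and arrays of the same prominence correlated closely (median r for each array 0.979 to 0.987). For the labelled tissues, 11 of 14 measured markers of crest mesenchyme and 7 of 11 of surface epithelium were above background on all 9 arrays. Among all 13009 genes, 8484 were. Frontonasal pool 2 stood apart: the summed signal of 14 liver and gut markers was 6616 there and 1884 to 2316 on the other 8 arrays. Because of these markers, calls of the 64 member genes between pairs of prominences are also given without frontonasal pool 2 where leaving it out changes them. The size of a difference without that pool is given for some members only. For genes of the marker and partner lists no values without that pool are given, so their calls rest on all 9 arrays. The ratio of 3' to 5' signal of GAPDH, a measure of RNA length, was 1.51, 1.27 and 1.38 in frontonasal pools 1 to 3. It was 1.19 to 1.29 in the others. A difference in RNA length cannot be told apart from the frontonasal group, and leaving out pool 2 keeps its pools with the higher ratios.

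Of the 64 genes, 38 were above background on all 9 arrays, 10 were above it on none, and 50 had a mean signal above the mean background. The moderated F test of limma, which asks whether a gene differs among the 3 prominences at all, called 6 of the 64 at an adjusted p under 0.05 (CDH1, CDH2, CDH11, CDH13, ITGA2 and LAMA5), or 9.38%, where it called 4.21% of all genes. Among genes with a mean signal above background it called 6 of 50 members, 12.0%, and 5.12% of all such genes. All calls between pairs of prominences involved the frontonasal mass. Between the mandibular prominence and the frontonasal mass, 2 members were higher in the mandible (CDH5 and CDH13) and 4 lower (CDH1, CDH2, CDH11 and ITGA2), 3.12% and 6.25% of the members beside 1.85% and 2.33% of all genes. Between the maxillary prominence and the frontonasal mass none was higher and 4 were lower (CDH1, CDH2, ITGA2 and LAMA5), 6.25%, where 1.31% of all genes were higher and 2.24% lower. At an unadjusted limma p under 0.05, 6 of the 64 members were higher and 10 lower in the mandible. Of all 13009 genes 1078 (8.29%) were higher and 1109 (8.52%) lower there. In the maxilla 7 of the 64 were higher and 12 lower, beside 1023 (7.86%) and 1224 (9.41%) of all genes.

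No member differed between the mandibular and maxillary prominences at an adjusted p under 0.05 in limma, where 0.292% of all genes were higher and 0.161% lower in the mandible. The smallest adjusted p there was 0.259. At an unadjusted limma p under 0.05, 7 of the 64 members were higher and 3 lower, beside 615 (4.73%) and 442 (3.4%) of the 13009 genes. Over all members the median log2 difference was -0.09 between mandible and frontonasal mass, -0.04 between maxilla and frontonasal mass and -0.03 between mandible and maxilla, and over all genes these medians lay between -0.0074 and 0.0082.

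**Figure D1:**
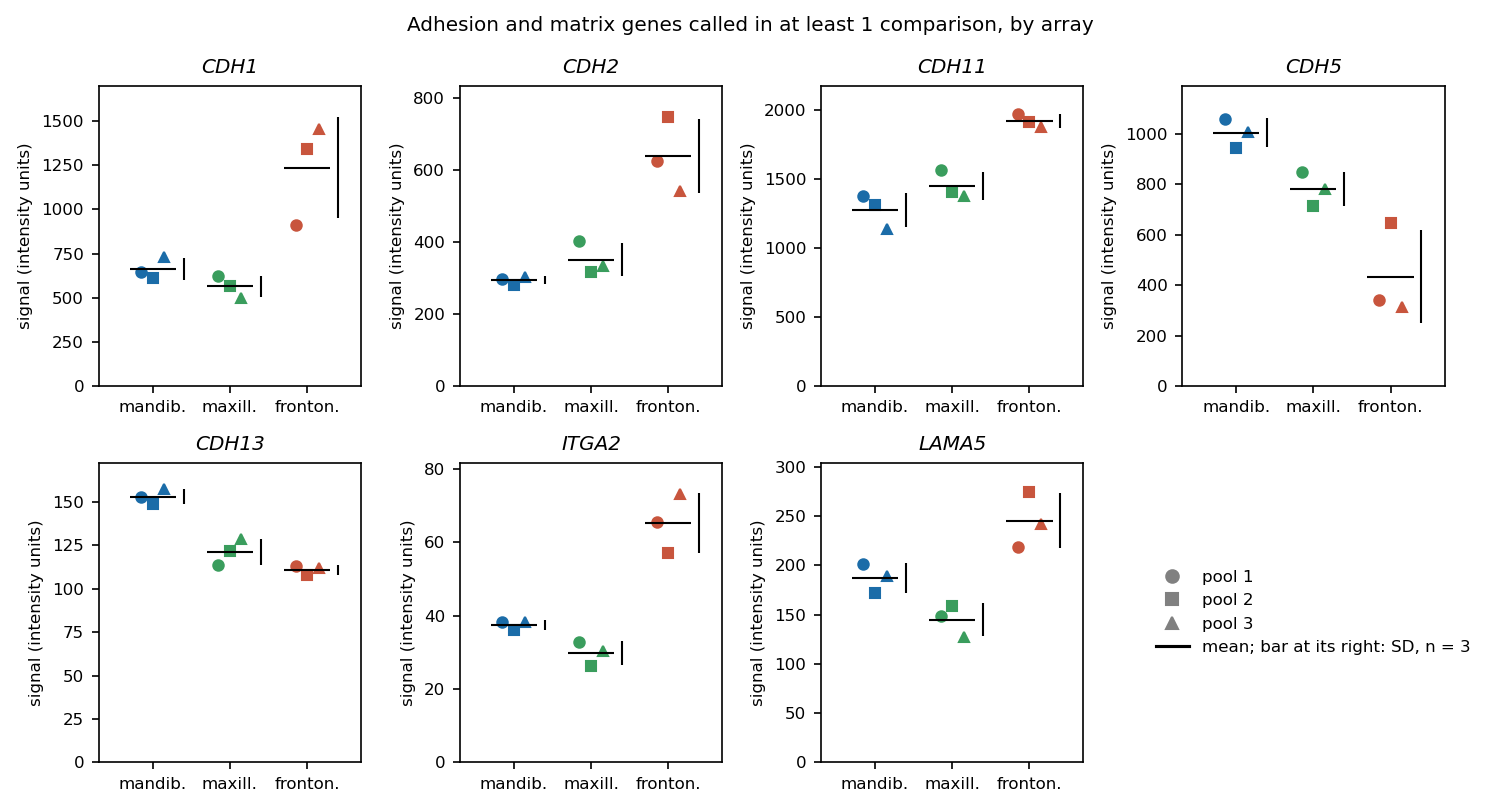
Signal (linear intensity units, axes from 0) of the 7 genes called in at least 1 comparison, by prominence; circles, squares and triangles are pools 1, 2 and 3, lines are means and bars at their right are SD (n = 3). CDH1, CDH2, CDH11, ITGA2 and LAMA5 are highest in all frontonasal pools, while CDH5 and CDH13 are highest in all mandibular pools.

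Among the type I cadherins, CDH1 and CDH2 were both highest in the frontonasal mass. CDH1 encodes E-cadherin, the cadherin of epithelial cells. Its signal was 645, 614 and 732 in mandibular pools 1 to 3, 623, 568 and 500 in the maxillary pools, and 913, 1343 and 1453 in the frontonasal pools. Every frontonasal pool lay above every other pool, and frontonasal pool 1 was the nearest to them. The mandibular level was lower than the frontonasal one by a log2 difference of -0.86 ± 0.17 (SE; limma adjusted p = 0.041) and the maxillary level by -1.09 ± 0.17 (adjusted p = 0.0159). Mandible and maxilla were not told apart, with a mandibular minus maxillary log2 difference of 0.23 and a 95% interval from -0.16 to 0.63. The mandibular call was fragile: it held with frontonasal pool 1 left out (adjusted p = 0.00822) and was lost with any other single array left out (0.0609 to 0.143, the last without mandibular pool 2; 0.101 without frontonasal pool 2). The maxillary call was lost without maxillary pool 2 (0.0648) or pool 3 (0.064).

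Surface epithelium markers were split: of the 11 measured, 4 were above and 7 below the frontonasal mass in the mandible (median log2 difference -0.08). In the maxilla 3 were above and 8 below (median -0.24). The summed signal of the 11 measured was 6675 to 7127 in the mandibular, 5533 to 6327 in the maxillary and 7677 to 8444 in the frontonasal pools. The desmosome gene DSP was lower in mandible (log2 difference -0.53, limma adjusted p = 0.0396) and maxilla (-0.85, adjusted p = 0.00491) than in the frontonasal mass. EPCAM was lower in the maxilla (-0.48, adjusted p = 0.0178), as was the tight junction gene CLDN1 (-0.57, adjusted p = 0.0261), and the epithelial transcription factor ELF3 was lower in the mandible (-0.92, adjusted p = 0.0267). The basal keratin KRT14 went the other way, higher in the mandible by 0.93 (adjusted p = 0.00967) and in the maxilla by 0.71 (adjusted p = 0.0357). Each comparison thus held 1 epithelial marker higher beside 2 lower in the mandible and 3 lower in the maxilla. As shares these were 9.09% higher and 18.2% lower in the mandible, and 9.09% higher and 27.3% lower in the maxilla. Among all genes the shares were 1.85% and 2.33% in the mandible, and 1.31% and 2.24% in the maxilla. The part of epithelial content in the CDH1 difference was not tested.

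CDH2 encodes N-cadherin, found in neural tissue, placodes and much mesenchyme. It read 297, 281 and 303 in the mandibular pools, 403, 316 and 334 in the maxillary pools and 626, 748 and 542 in the frontonasal pools. The frontonasal pools did not overlap with either jaw prominence, and the maxillary pools lay slightly above the mandibular ones. Log2 differences from the frontonasal mass were -1.07 ± 0.13 for the mandible (limma adjusted p = 0.00448) and -0.83 ± 0.13 for the maxilla (adjusted p = 0.0162), while mandible and maxilla differed by -0.24 ± 0.13 (adjusted p = 0.817). A dimmer probe set for the gene was called in both comparisons as well, at -0.80 (adjusted p = 0.0162) and -0.81 (adjusted p = 0.0174). The mandibular call held with every array left out in turn (adjusted p up to 0.0268), and the maxillary call was lost without frontonasal pool 1 (0.0533), maxillary pool 2 (0.0732) or maxillary pool 3 (0.0652).

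Forebrain and neuroepithelium markers were higher in the same frontonasal pools. Of 13 measured, 8 were lower in the mandible and the same number in the maxilla (61.5%, beside 2.33% and 2.24% of all genes). Among them were the transcription factor genes SOX3, SIX3 and ZIC1. The summed signal of the 13 was 808 to 1015 in mandibular, 720 to 826 in maxillary and 2007 to 2646 in frontonasal pools. SOX2, a gene of neural progenitors, was above background in no frontonasal pool (13.6, 17.1 and 29.5). Neuron markers had 3 of 13 called lower in the mandible and 5 of 13 in the maxilla (23.1% and 38.5%, beside the same shares of all genes). They went both ways: in the mandible 4 of the 13 were above the frontonasal mass (highest log2 difference 2.67, none called) and 9 below. In the maxilla 2 of these markers were above and 11 below. Their summed signals were 1443 to 1624, 800 to 832 and 1104 to 1635 in mandibular, maxillary and frontonasal pools. The part of neural tissue in the CDH2 difference was not tested.

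The other type I members gave no call. P-cadherin (CDH3), a cadherin of basal epithelium and the direct neighbour of CDH1 on its chromosome, read 967, 898 and 972 in mandibular, 841, 685 and 596 in maxillary and 1044, 1006 and 1110 in frontonasal pools. Its mandibular level was close to the frontonasal one (log2 difference -0.15, limma adjusted p = 0.673). The maxillary level lay below every pool of the other prominences, at -0.58 ± 0.12 against the frontonasal mass (adjusted p = 0.0535), just outside the threshold; it was called in 6 of 19 alternative fits, among them the one without maxillary pool 1 (0.0197). A second, dimmer probe set of CDH3 had a maxillary difference of -0.04 (adjusted p = 0.932). R-cadherin (CDH4) read 72.9, 77.9 and 75.1 in the mandible, 72.6, 45.4 and 71.8 in the maxilla and 37.0, 72.0 and 15.1 in the frontonasal mass, where pool 2 was far from the other pools (log2 difference 0.80, adjusted p = 0.335, and 1.17, adjusted p = 0.0521, without that pool).

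Of 12 type II cadherins, 2 were called, in opposite directions. In the mandible this was 8.33% higher and 8.33% lower, beside 1.85% and 2.33% of all genes. CDH11, a cadherin of mesenchymal cells, read 1375.5, 1314 and 1136 in the mandibular pools, 1566, 1408.5 and 1376.5 in the maxillary pools and 1971, 1912 and 1876.5 in the frontonasal pools. The mandible was lowest and the frontonasal mass highest. The 3 prominences did not overlap, but the highest mandibular pool (1375.5) and the lowest maxillary pool (1376.5) were almost equal. Against the frontonasal mass the mandible had a log2 difference of -0.59 ± 0.10 (limma adjusted p = 0.0152) and the maxilla one of -0.40 ± 0.10 (adjusted p = 0.0814), so the middle position of the maxilla was separated from neither neighbour by the test. The mandibular call was lost without frontonasal pool 1 (0.0566), mandibular pool 2 (0.0532) or mandibular pool 3 (0.0512). A second, dimmer probe set had -1.06 with a wide spread (adjusted p = 0.324).

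Summed signals of the 14 crest mesenchyme markers overlapped between the frontonasal pools (6891 to 7756) and both the mandibular (6046 to 7038) and maxillary pools (7538 to 9217). Single markers moved both ways: 6 were higher and 2 lower in the mandible, 4 higher and 1 lower in the maxilla than in the frontonasal mass. These were 42.9%, 14.3%, 28.6% and 7.14% of the list, beside 1.85%, 2.33%, 1.31% and 2.24% of all genes.

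CDH5, VE-cadherin, joins endothelial cells. Its signal was 1058.5, 944 and 1009 in the mandibular pools, 850, 714 and 783 in the maxillary pools, and 340, 645 and 314 in the frontonasal pools. All jaw pools lay above all frontonasal pools, and frontonasal pool 2 read nearer to the lowest jaw pool than to the others of its group. The mandible was higher than the frontonasal mass by 1.26 ± 0.23 on the log2 scale (limma adjusted p = 0.0296), and the maxilla had 0.90 ± 0.23 (adjusted p = 0.11). Without frontonasal pool 2 the differences were 1.57 (adjusted p = 0.000405) and 1.22 (adjusted p = 0.00173), both called. The mandibular call was lost with any other single array left out (adjusted p 0.0525 to 0.108, the last without mandibular pool 1).

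Some other endothelial genes moved beside CDH5. Of 18 endothelium markers, CD34, SOX18, FLT1 and CLDN5 were called higher in the mandible than in the frontonasal mass. In the maxilla CD34, SOX18 and FLI1 were called higher, and none was called lower in either. The called genes were 22.2% and 16.7% of the list, where 1.85% and 1.31% of all genes were higher. Called or not, 15 of the 18 were above and 3 below the frontonasal mass in the mandible (lowest log2 difference -0.52). In the maxilla 14 were above and 4 below (lowest -0.55). The haematopoietic and endothelial sialomucin gene CD34 had log2 differences of 1.47 (limma adjusted p = 0.00154) and 0.99 (adjusted p = 0.0115), and the endothelial transcription factor gene SOX18 had 1.29 (adjusted p = 0.0017) and 0.74 (adjusted p = 0.0284). Summed over the list, the mandibular pools had 3594 to 3683, the maxillary pools 3082 to 3817, and the frontonasal pools 2412, 2995 and 2488, again with pool 2 the highest of its group. PECAM1, a defining endothelial gene, was above background on no frontonasal array and on all 3 mandibular ones. The part of vessel content in the CDH5 difference was not tested.

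**Figure D2:**
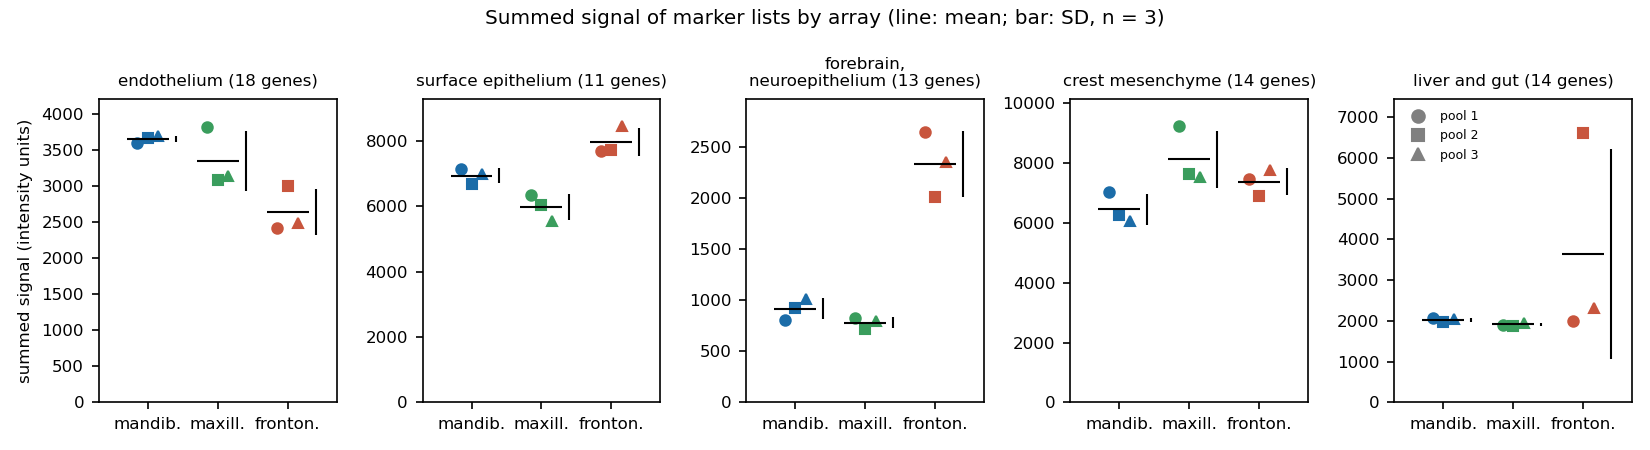
Summed signal (linear intensity units, axes from 0) of 5 marker lists by prominence; symbols mark pools 1 to 3, lines are means and bars SD (n = 3). Endothelium is lowest and neuroepithelium highest in all frontonasal pools, and liver and gut genes reach 6616 in frontonasal pool 2 alone.

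The remaining type II cadherins gave no call. CDH22 read 76.6, 64.5 and 110 in mandibular pools and 147, 116 and 143 in frontonasal pools, with no overlap, and 88.6 to 102 in the maxillary pools, inside the mandibular range (mandible minus frontonasal mass -0.63 ± 0.16, limma adjusted p = 0.107). It was called without mandibular pool 3 (-0.81, adjusted p = 0.0298). The second-brightest probe set of CDH22 had the opposite sign (0.18, adjusted p = 0.746). The range of CDH19, a cadherin of Schwann cell precursors, was 51.7 to 94.8 over all arrays, and that of CDH9 44.9 to 99.5, each with the prominences overlapping. CDH6 and CDH7, both expressed by chick crest cells or their forerunners in the neural folds, were at or near background: CDH7 exceeded it on no array and CDH6 only in frontonasal pool 2 (34.4). CDH20 was above background on all frontonasal, 2 maxillary and 1 mandibular array (20.6 to 43.6). CDH18 exceeded it on 1 array by its brightest probe set and on 2 others by the next, and CDH10 and CDH12 exceeded it on none. CDH8 read 338 to 430 in all prominences by a probe set that its name marks as able to bind related transcripts, while its other 3 probe sets read at most 33.1.

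Of the cadherins with another structure, CDH13 was called. T-cadherin, its product, is held to the membrane by a lipid anchor and has no cytoplasmic tail. It read 153, 149 and 157 in the mandibular pools, 114, 122 and 129 in the maxillary pools and 113, 108 and 112 in the frontonasal pools. The mandible stood alone above both other prominences. Its log2 difference from the frontonasal mass was 0.41 ± 0.07 (limma adjusted p = 0.0258) and from the maxilla 0.30 (adjusted p = 0.268). Both dimmer probe sets pointed the same way, at 0.37 and 0.61, without a call (adjusted p = 0.377 and 0.0798). With single arrays left out the call held only without maxillary pool 1 (0.0327) or 3 (0.0387), and the adjusted p reached 0.0994 without mandibular pool 3 and 0.064 without frontonasal pool 2. Cadherin 23 of the inner ear hair cell (CDH23) read 20.3 to 69.5 and the intestinal CDH17 exceeded background on no array.

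By its brightest probe set no protocadherin was called in any comparison. Protocadherins are the largest cadherin subfamily, best known for sorting neurons and for roles in early tissue boundaries. Of the 15 measured, 7 were above background on all 9 arrays and 3 (PCDH8, PCDH12 and PCDHAC2) on none. At an unadjusted p under 0.05 there was 1 higher in the mandible than in the frontonasal mass, and there were 2 higher and 1 lower in the maxilla, where 7.86% to 9.41% of all genes lay in each direction of these comparisons. The smallest limma adjusted p was 0.144 for the mandible and 0.247 for the maxilla against the frontonasal mass.

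By brightest probe sets the largest protocadherin difference was that of PCDH7, a delta protocadherin that marks ectoderm in frog embryos. It read 49.4, 38.6 and 48.3 in the mandibular pools, 55.6, 37.3 and 24.7 in the maxillary pools and 13.9, 31.0 and 11.2 in the frontonasal pools. No frontonasal pool was above background and all mandibular ones were. The mandible read at least 1.34-fold higher by this probe set, without a call (limma adjusted p = 0.144). Where a group lay under background on all its arrays, such bounds compare the brighter group with the background level or the dim signal, whichever is higher. Without frontonasal pool 2 the mandibular difference was called (adjusted p = 0.0443). A second, dimmer probe set had the opposite sign with all arrays (log2 difference -0.15, adjusted p = 0.801).

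None of the other delta protocadherins was called by its brightest probe set. PCDH1, an axial protocadherin of epithelia, read 152 to 240 over all arrays, and PCDH11X read 66.9 to 96.4. PCDH18 had 73.0, 69.8 and 65.4 in the mandible and 74.1, 89.8 and 99.7 in the frontonasal mass, and the maxilla (77.6, 70.1 and 49.3) overlapped the frontonasal pools (log2 difference -0.36, limma adjusted p = 0.328). PCDH19 had -0.32 in the mandible (adjusted p = 0.41). PCDH10, a protocadherin of olfactory and somitic tissue, read 23.0 to 76.0, and PCDH9 read 35.4 to 63.0. PCDH20 read 68.2 to 130, and PCDH17 read 75.7 to 161 with a wide spread inside each prominence. The second-brightest probe set of PCDH17 was called higher in the mandible than in the frontonasal mass (0.90, limma adjusted p = 0.0395). Its brightest had -0.09.

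Genes of the clustered protocadherins splice many variable first exons to shared constant exons, so a probe set may read several of them. PCDHGA2 read 391 to 646 and PCDHGC5 read 101 to 145, with no call, and 2 probe sets assigned to both PCDHAC1 and PCDHAC2 were left out. PCDH15, a tip link protein of hair cells, read 41.7 to 42.2 in the maxilla and 27.7 to 37.7 in the frontonasal mass (0.26, limma adjusted p = 0.247), close to background.

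**Figure D3:**
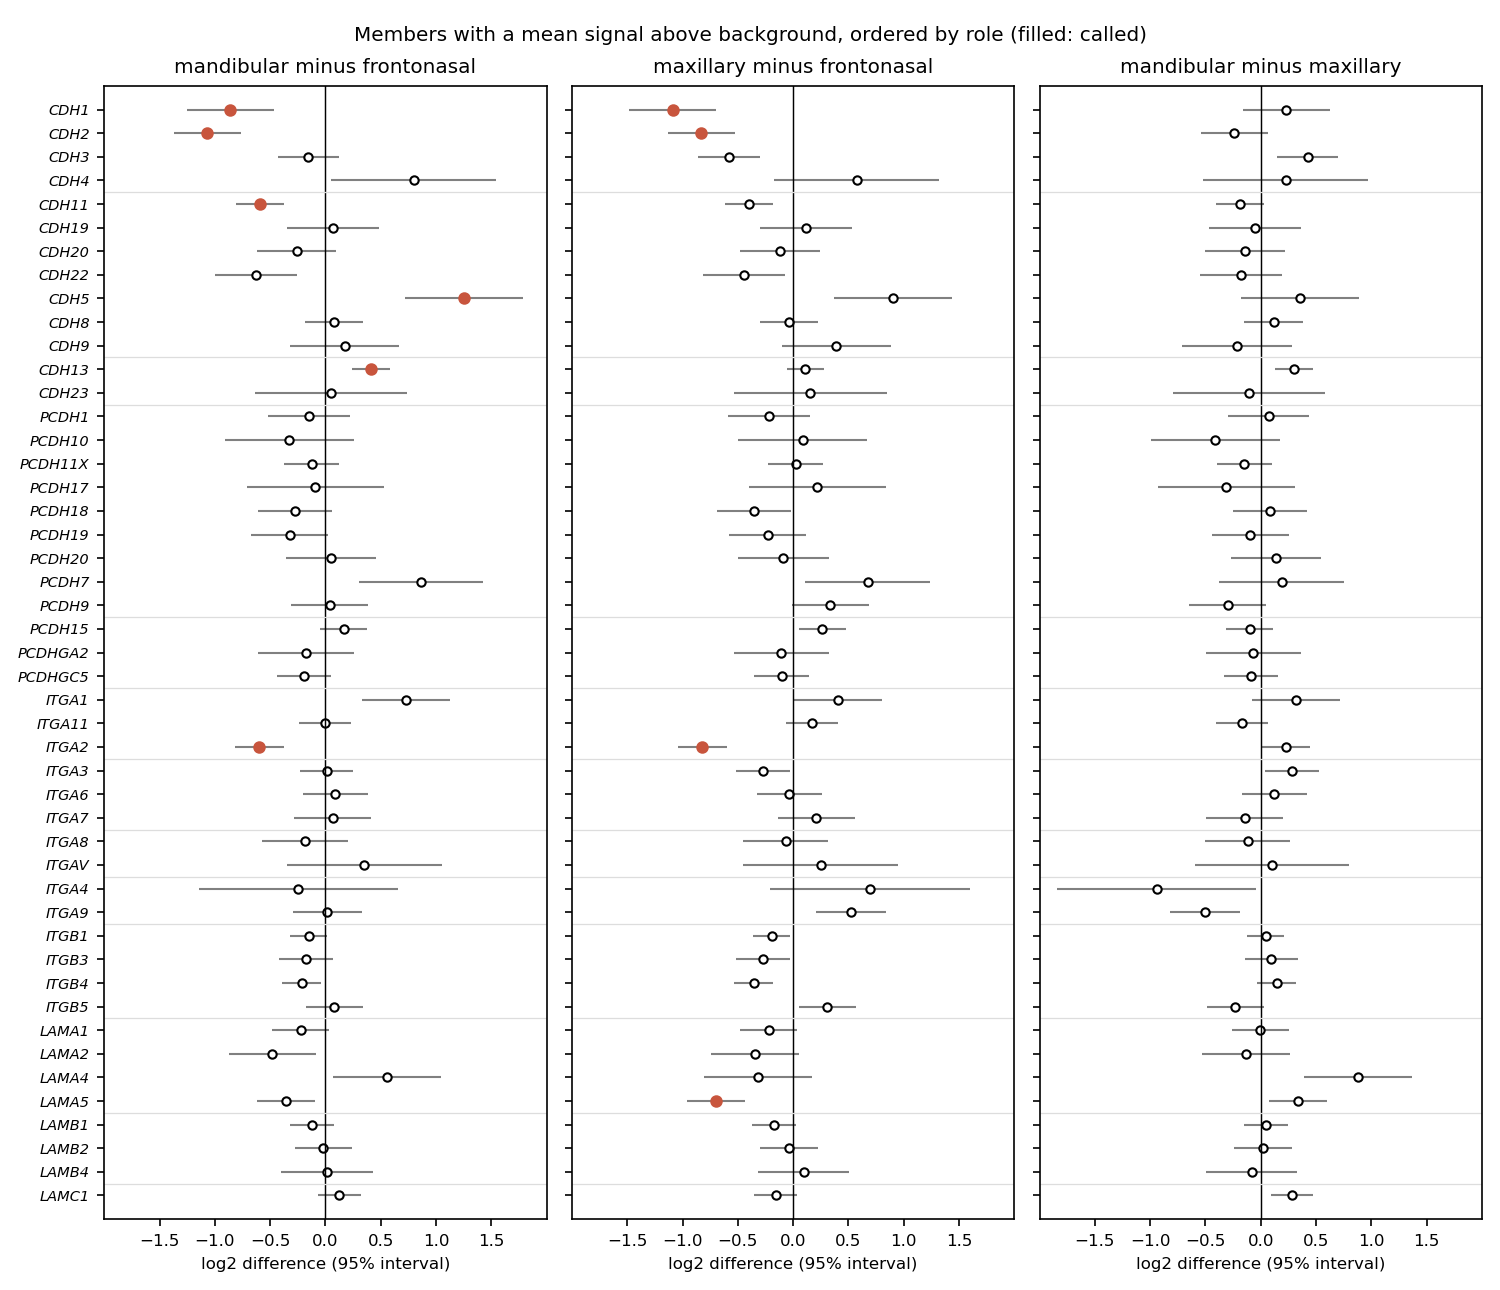
Log2 differences with 95% intervals for the 47 cadherins, integrins and laminins whose mean signal exceeded background, grouped by role, in 3 comparisons; filled points were called at a limma adjusted p under 0.05. Filled points appear in both comparisons with the frontonasal mass, mostly on the lower side, and none appears between mandible and maxilla.

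Integrin alpha chains contributed 1 called gene, ITGA2, whose product pairs with integrin beta 1 to bind collagen and laminin. As 1 of 16 integrin subunits ITGA2 made 6.25% lower, beside 2.33% of all genes in the mandible and 2.24% in the maxilla. It read 38.3, 36.0 and 38.3 in the mandibular pools, 32.9, 26.3 and 30.4 in the maxillary pools, and 65.6, 57.0 and 73.1 in the frontonasal pools. All frontonasal pools were above all others. Mandibular pools sat just above background and maxillary pools under it. The mandible was lower by -0.60 ± 0.10 (limma adjusted p = 0.0155). The frontonasal mass was at least 1.84-fold higher than the maxilla (adjusted p = 0.00379), and that call held with every array left out in turn (up to 0.02). The mandibular call was lost without any 1 mandibular pool (0.0577, 0.0694 and 0.0576) or without frontonasal pool 1 (0.0552).

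ITGA1, which encodes the other widely expressed collagen-binding alpha chain and lies 1 coding gene away from ITGA2, was lowest where ITGA2 was highest, in the frontonasal mass. It read 77.6, 83.1 and 85.5 in mandibular pools, 73.7, 50.4 and 65.0 in maxillary pools and 50.4, 53.2 and 29.1 in frontonasal pools. The mandible lay above both others without overlap, at 0.73 ± 0.17 against the frontonasal mass, and was not called (limma adjusted p = 0.0801). ITGA11, the collagen receptor chain of mesenchymal cells, read 44.0 to 63.0 with no difference past 0.17 in size from the frontonasal mass.

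Laminin-binding alpha chains were not called. ITGA3 read 333 to 364 in the mandible, 338 to 343 in the frontonasal mass and 236, 299 and 311 in the maxilla (-0.27 against the frontonasal mass, limma adjusted p = 0.301). ITGA6, the laminin receptor chain of basal epithelium, read 281 to 389, and ITGA7, known from muscle, 43.0 to 71.3. Log2 differences of ITGA6 from the frontonasal mass were 0.09 and -0.03.

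Of the fibronectin receptors, ITGA4, a chain of crest cells and leukocytes, varied widely between pools. It read 1003, 712 and 784 in the mandible, 2208, 1070 and 1726 in the maxilla and 1372, 511 and 1337 in the frontonasal mass. Pool 2 was the lowest in each prominence. The maxilla minus frontonasal difference was 0.70 ± 0.40 (limma adjusted p = 0.507). That value includes frontonasal pool 2, which at 511 read far below the others of its group. Mandibular pools all lay below the maxillary ones, at -0.94 ± 0.40, the largest negative difference of a member between the jaw prominences, without a call (adjusted p = 0.671). ITGA9, a receptor chain for tenascin and other ligands, was highest in the maxilla, at 142, 126 and 110 against 76.6, 70.1 and 104 in the frontonasal mass and 80.1 to 89.1 in the mandible. The maxillary pools overlapped with neither (0.52 ± 0.14 against the frontonasal mass, adjusted p = 0.113, and 0.66, adjusted p = 0.0394, without frontonasal pool 3). A second, dimmer probe set of ITGA9 had 0.82 without a call (limma adjusted p = 0.0862). The mean of all its probe sets was called (0.67, adjusted p = 0.0115). ITGA8 read 46.9 to 75.4 and ITGAV 9.02 to 50.7. ITGA5 and ITGB8 were not analysed here.

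No beta chain was called. Integrin beta 1 (ITGB1), the partner of most of these alpha chains, read 1519.6 to 1606.5 in mandibular, 1499.8 to 1557 in maxillary and 1679 to 1851 in frontonasal pools. The frontonasal pools lay above the rest by a small margin, with log2 differences of -0.15 (95% interval -0.32 to 0.02) and -0.19 (limma adjusted p = 0.286). ITGB4, the hemidesmosome chain that pairs with alpha 6, read 132, 131 and 119 in mandibular, 110, 119 and 112 in maxillary and 157, 144 and 150 in frontonasal pools. Its frontonasal pools overlapped with no other, and the maxillary difference of -0.36 ± 0.08 just missed the call (adjusted p = 0.0615). The second-brightest probe set of ITGB4 had the opposite sign (0.18). ITGB3 read 389 to 566 and ITGB5 721 to 1074, both vitronectin receptor chains, without a call. The epithelial ITGB6 and the leukocyte chain ITGB2 were above background on no array.

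Of the 3 binding proteins, ITGB1BP1 read 135 to 247, ITGB3BP, also a centromere protein, 296 to 401, and ITGB1BP3, a muscle protein that binds integrin beta 1, 3888.5 to 4945. None was called, with a smallest limma adjusted p of 0.381.

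By their brightest probe sets the 11 laminin chains gave 1 call, lower in the maxilla, or 9.09% beside 2.24% of all genes. LAMA5 encodes the alpha chain of the main laminin of epithelial and vessel basement membranes. It read 202, 172 and 189 in the mandibular pools, 149, 159 and 127 in the maxillary pools, and 219, 274 and 242 in the frontonasal pools. The prominences did not overlap, and the maxilla was lowest. The maxillary minus frontonasal difference was -0.70 ± 0.11 (limma adjusted p = 0.0189) and the mandibular one -0.36 ± 0.11 (adjusted p = 0.198). The maxillary call was lost without frontonasal pool 3 (0.0554), maxillary pool 1 (0.0584) or maxillary pool 3 (0.0637).

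LAMA4, an alpha chain of vessel walls, had the largest positive mandible minus maxilla difference of the members. It read 111, 78.7 and 89.1 in mandibular, 47.4, 47.2 and 34.9 in maxillary and 43.6, 87.5 and 48.1 in frontonasal pools. Mandible and maxilla did not overlap (0.88 ± 0.21), yet the limma adjusted p was 0.259. Frontonasal pool 2 read within the mandibular range, and without it the mandible was called higher than the frontonasal mass (0.81, adjusted p = 0.0385, against 0.56 and 0.294 with it). A second, dimmer probe set had the opposite sign with all arrays (-0.24, adjusted p = 0.458).

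Among the other alpha chains, LAMA1, the first laminin alpha chain of the embryo, read 79.2 to 120 (both differences from the frontonasal mass -0.22, limma adjusted p = 0.446 and 0.445). The second-brightest probe set of LAMA1 was called lower in the mandible (-0.62, limma adjusted p = 0.0485). LAMA2, known from muscle, had 53.5, 38.6 and 41.6 in the mandible and 65.2, 79.6 and 60.2 in the frontonasal mass (-0.48, adjusted p = 0.26). LAMA3, of the epidermal laminin, was above background on no array. The beta chain LAMB3 exceeded background on 1 array.

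No beta or gamma chain was called. LAMB1 read 1086 to 1336.5 over all arrays, with differences of -0.12 (95% interval -0.32 to 0.08) and -0.17 (limma adjusted p = 0.449) from the frontonasal mass. LAMC1 read 1648, 1485 and 1632 in the mandible, 1307, 1241 and 1361 in the maxilla and 1357, 1482 and 1525 in the frontonasal mass. Its mandible minus maxilla difference of 0.28, without overlap, was not called (adjusted p = 0.425). LAMB2 read 42.0 to 57.9, LAMB4 24.4 to 47.6, and LAMC3 exceeded background only in frontonasal pool 2 (38.6). LAMB4 had a maxillary minus frontonasal difference of 0.10 by its brightest probe set (limma adjusted p = 0.888), which depended on the probe sets used. It was called in 1 of 19 alternatives, the mean of all its probe sets (limma adjusted p = 0.0419). The largest difference over the 19 alternatives was 1.54.

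Related members that differ in their pattern can be set side by side, each against its own frontonasal mean. These 4 pairs were chosen after their values were seen, so the differences are descriptions with no test. CDH1 had a log2 difference from the frontonasal mass that was lower than that of CDH3 by -0.71 ± 0.20 (SE) in the mandible and -0.51 ± 0.20 in the maxilla. For ITGA2 and ITGA1 the gap was -1.33 ± 0.28 in the mandible, with the members on opposite sides of their frontonasal means, and none is given for the maxilla, where ITGA2 was under background. LAMA5 was below LAMC1 by -0.48 ± 0.07 in the mandible and -0.54 ± 0.14 in the maxilla, and CDH2 below CDH11 by -0.48 ± 0.16 and -0.43 ± 0.14. CDH1 and CDH3 are direct neighbours in the reference annotation, as are CDH11 and CDH5, which differed from the frontonasal mass in opposite directions.

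**Figure D4:**
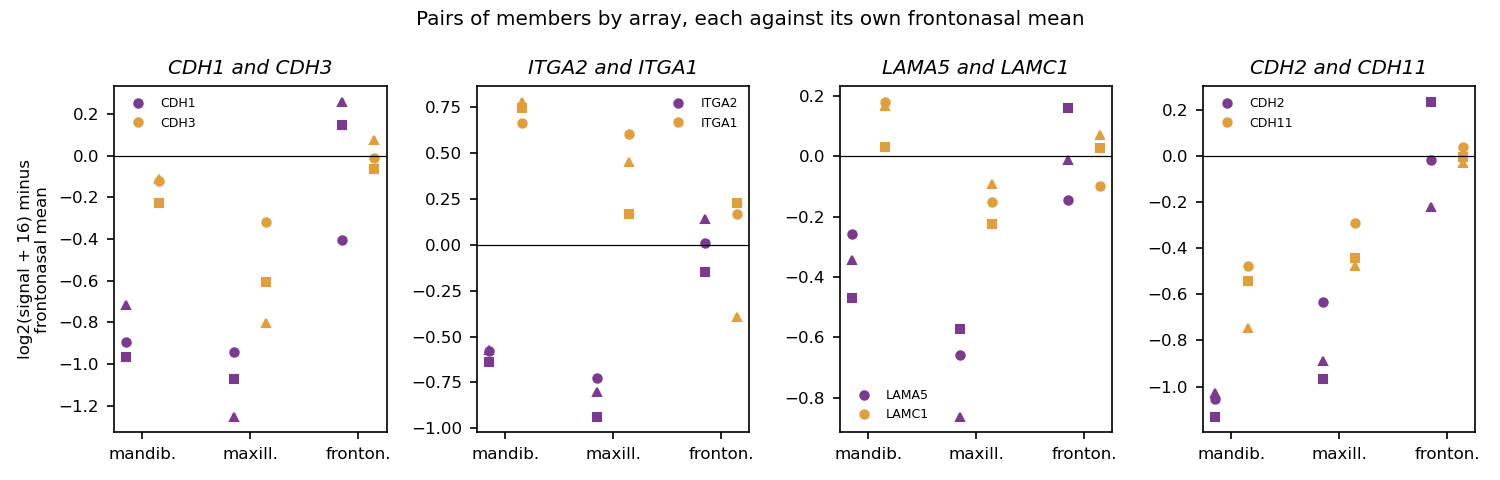
Log2(signal + 16) of 4 pairs of related genes on each array, minus that gene's own frontonasal mean; circles, squares and triangles are pools 1, 2 and 3. ITGA2 lies under and ITGA1 above the zero line in all mandibular and maxillary pools (ITGA2 was under background in the maxillary ones), and LAMA5 lies under it in all of them.

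Of 13 catenins and related cadherin partners, 1 was lower in the mandible than in the frontonasal mass and none was called in the maxilla. That was 7.69% of the list, where 2.33% of all genes were lower in the mandible. The called gene was PKP1, a desmosomal plakophilin, at 12.8, 11.7 and 12.8 in the mandible, under background, and 31.2, 55.0 and 46.2 in the frontonasal mass, at least 1.28-fold higher there (limma adjusted p = 0.0102). Frontonasal pool 1 (31.2) was also under the background of its array (36.3), so PKP1 was near background in both groups. Beta-catenin (CTNNB1) had differences of -0.04 and -0.02. Of 16 measured genes of the integrin adhesion complex, 1 was lower in the mandible and none was called in the maxilla. That was 6.25% of this list, beside 2.33% of all genes. The gene was VCL, vinculin, which links both cadherin and integrin adhesions to actin. It read 1838, 1697 and 1730 in the mandible and 2601, 2316 and 2680.5 in the frontonasal mass (-0.52 ± 0.10, limma adjusted p = 0.0287).

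Of 18 measured basement membrane partners of the laminins, 1 was lower in the mandible and 4 in the maxilla than in the frontonasal mass. Their shares were 5.56% and 22.2%, beside 2.33% and 2.24% of all genes. AGRN encodes agrin, a heparan sulfate proteoglycan that binds laminin. It read 340, 322 and 316 in the mandible, 273, 270 and 210 in the maxilla and 659, 591 and 604 in the frontonasal mass, with no overlap (-0.89 ± 0.11, limma adjusted p = 0.00421, and -1.25 ± 0.11, adjusted p = 0.000857). The maxilla was also lower in the collagen IV chains COL4A5 (-0.79, adjusted p = 0.00722) and COL4A6 (-0.59, adjusted p = 0.0461), and in FRAS1 (-0.50, adjusted p = 0.0349), a protein under embryonic epithelia. Between the jaw prominences, NID1, nidogen, which joins laminin to collagen IV, was higher in the mandible (0.73 ± 0.10, adjusted p = 0.0329) and COL4A1 lower (-0.61 ± 0.09, adjusted p = 0.0375).

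Of 12 integrin ligands, 2 were lower in both jaw prominences. This was 16.7% of the list, beside 2.33% of all genes in the mandible and 2.24% in the maxilla. POSTN, periostin, a ligand of alpha V integrins, read 515, 580 and 476 in the mandible, 718, 633 and 725 in the maxilla and 1214, 1492 and 1361 in the frontonasal mass (-1.35 ± 0.11, limma adjusted p = 0.000593, and -0.95 ± 0.11, adjusted p = 0.00369). EDIL3, an RGD protein first found on endothelium, was above background in no jaw pool and read 114, 68.0 and 87.2 in the frontonasal mass, at least 2.60-fold above the mandible (adjusted p = 0.0048) and at least 2.49-fold above the maxilla (adjusted p = 0.00697). Fibronectin (FN1) had differences of 0.13 and 0.05 and was not called.

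Lists for other tissues were measured too. Leukocyte markers (8) and liver and gut markers (14) held no call in any comparison. Of 7 erythroid markers 1, SLC4A1, was lower in the mandible than in the frontonasal mass (14.3%, beside 2.33% of all genes). Muscle and heart markers (16) had MYF5 higher and MYL4 lower in both jaw prominences than in the frontonasal mass. Each was 6.25% of the list, beside 1.31% to 2.33% of all genes in each direction. Without frontonasal pool 2, 6 members were called between mandible and frontonasal mass (CDH2, CDH11 and ITGA2 lower, CDH5, LAMA4 and PCDH7 higher), where 2.54% of all genes were higher and 2.18% lower. In that fit 5 were called between maxilla and frontonasal mass (CDH1, CDH2, ITGA2 and LAMA5 lower, CDH5 higher), beside 1.59% of all genes higher and 1.82% lower.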

How the data were processed

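Gene expression was measured in 9 pools, 3 of each prominence, grouped by the prominence in their titles. A 2-cycle amplification of 500 ng of total RNA, per the labels' protocols, gave the biotinylated cRNA, a procedure that favours probes near the 3' end. The deposited values are linear intensity values per probe set, and each array's mean without its highest and lowest 2% was 150.03, so the arrays had been scaled before deposit. Summarisation software and scan batches were not given in the sources used here.

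After removal of 96 control probe sets, arrays were scaled to a common median and log2(signal + 16), which understates changes of dim genes, was fitted in limma 3.58.1 (R 4.3.3) with all 9 arrays (6 residual degrees of freedom). P values were adjusted by Benjamini-Hochberg over all 38439 probe sets, and calls use an adjusted p under 0.05. They measure the spread between pools, and 3 pools a group limit the precision. The pipeline was tested on simulated data. Genes were named from the platform annotation, and neighbours from the RefSeq table of GRCg7b. No sequence was used.

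Members, lists and tests were chosen with earlier results of these data known. Named genes are called members, the 3 largest differences per direction and comparison, and a panel of known members. The other members named were added to account for all. Replicate numbers were not treated as pairing the pools, since the labels do not say so. The 9 same-number correlations of deviations were small but all positive (0.0166 to 0.12), and 9 of 9 arrays correlated best with their own number. Whether equal numbers share a source is not known. A fit with replicate blocks lost the calls of CDH1, CDH5 and CDH13 in the mandible and LAMA5 in the maxilla. Alternatives tried were offsets, scaling, a filter, the samples fitted, the variance prior, the probe set and leaving out each array. They were read out for the members only. How far calls of marker and partner genes depend on such choices was not tested.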

Additional observations from a re-analysis of the deposited data

Results flagged for a closer look

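A second probe set of PCDH17, not the one that represents the gene above, was higher in the mandible than in the frontonasal mass by 0.90 on the log2 scale (limma adjusted p = 0.0395; mean signal 93.9), while the representing probe set had -0.09 (adjusted p = 0.94). A second probe set of LAMA1 was lower in the mandible by -0.62 (limma adjusted p = 0.0485; mean signal 58.2), beside -0.22 (adjusted p = 0.446) for the representing one.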

How the results depend on the processing

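Counts of members called are given in the order mandible higher and lower, maxilla higher and lower than the frontonasal mass, then F test; they were 2, 4, 0, 4 and 6. With log2(signal + 1) they were 0, 2, 0, 3 and 2, with log2(signal + 32) 2, 4, 0, 7 and 6, with the replicate block 0, 3, 0, 3 and 3, with the mean of all probe sets of a gene 3, 3, 2, 4 and 7, and with the second-brightest probe set 1, 2, 0, 1 and 1. The block lost the calls of CDH1 (adjusted p = 0.0851), CDH5 (0.0665) and CDH13 (0.057) in the mandible and LAMA5 (0.0511) in the maxilla. With the arrays compared fitted alone the first 4 counts were 0, 2, 0 and 1. Leaving out 1 array in turn gave 0 to 3, 1 to 3, 0 to 1, 1 to 4 and 2 to 5. Quantile normalization, the deposited scaling, the filter on dim probe sets and an intensity trend in the prior kept every count within 1.5 times. No fit called a member between mandible and maxilla. The cause of these changes was not tested. CDH2 in the mandible was called in 19 of 19 alternatives and ITGA2 in the maxilla in 18 of 18, against 7 of 18 for CDH1 and CDH5 and 8 of 19 for CDH13 in the mandible. Every array correlated best with one of its own number (9 of 9), a hint from the data only. Only differences called in at least 1 fit were examined for a change of sign. Of those not called in the main fit, some turned sign with the second-brightest probe set. They were CDH22 (0.18), LAMA4 (-0.24), PCDH17 (0.90) and PCDH7 (-0.15) in the mandible and ITGB4 (0.18) in the maxilla. PCDH17 also turned sign with the mean of all probe sets (0.14). With single arrays left out, PCDH17 in the mandible ranged from -0.31 to 0.10 and LAMB4 in the maxilla from -0.12 to 0.21. Over all 19 alternatives LAMB4 in the maxilla reached 1.54. It was called in 1, the mean of all its probe sets (limma adjusted p = 0.0419). Signals under background, 10 members on all arrays, show no order.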
